A study of Mus musculus with 11 samples.

Results

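Regulatory T cells (Treg) were compared with antigen-experienced helper T cells that lack CD25, both taken from the mouse spleen and both low in CD45RB. The comparison takes 7 of the 11 arrays of the series, chosen by their labels: 3 arrays of sorted CD4+CD25+(CD45RBlow) cells, which the labels call the Treg population and number as replicates 1, 2 and 4, and 4 arrays of CD4+CD25-CD45RBlow cells, called activated/memory and numbered 1 to 4. All cells came from untreated female C57BL/6 mice with no stated transgene or deletion. Donors of the CD25- cells were 4 to 6 weeks old per the labels, which give no age for the Treg donors. The remaining 4 arrays hold CD4+CD25-CD45RBhigh cells, labelled naive, and are given as levels beside the others. They also enter the fit without a replicate block, through the shared estimate of the spread. In the fit with the replicate number as a block they change the estimated difference as well. On the 7 arrays alone 138 probe sets passed, in place of 156 with all 11, and 130 were called both ways. The labels do not say whether the replicates were separate mice or pools, so the p-values measure the spread between these RNA samples, which may be in part technical. The array is a custom chip for genes of glycan synthesis, glycan-binding proteins and glycosylated secreted and surface proteins, with 1246 probe sets, of which 963 were matched to 909 named genes.

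CD25, the alpha chain of the receptor for interleukin 2, raises its affinity and is carried at a steady high level by most Treg. CD45RB is a splice form of the phosphatase CD45 that is lost when a T cell has met antigen, so CD45RBlow cells outside the CD25+ gate are mostly effector and memory cells that can secrete cytokines on restimulation. Treg restrain such cells by contact, by taking up interleukin 2 and by secreting interleukin 10 and transforming growth factor beta. Sugar chains on the surface of both kinds of cell decide which selectins, galectins and Siglecs bind them, and are built by glycosyltransferases in the Golgi.

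The promoters of 5 genes that stand for this comparison are shown first, because their products define the populations or their function: the helper cytokine genes Il2, Il21, Il4 and Ifng, which were lower in Treg, and Il2ra, which encodes CD25 and was higher. The sequences are from RefSeq on GRCm38.p6, each 250 bases before to 50 after the start of the transcript, 5′ to 3′ on the gene's strand. For Il4, which has 2 starts in the table, the one farther upstream is given. Capitals mark GGAAAA, a form of the core that factors of the NFAT family bind, or its complement TTTTCC, and the TATA box letters TATAAA, both searched on both strands. The windows are chr3:37125905-37126204 (minus strand) for Il2, chr3:37232587-37232886 (minus) for Il21, chr11:53618616-53618915 (minus) for Il4, chr10:118440796-118441095 (plus) for Ifng and chr2:11642542-11642841 (plus) for Il2ra.
Il2: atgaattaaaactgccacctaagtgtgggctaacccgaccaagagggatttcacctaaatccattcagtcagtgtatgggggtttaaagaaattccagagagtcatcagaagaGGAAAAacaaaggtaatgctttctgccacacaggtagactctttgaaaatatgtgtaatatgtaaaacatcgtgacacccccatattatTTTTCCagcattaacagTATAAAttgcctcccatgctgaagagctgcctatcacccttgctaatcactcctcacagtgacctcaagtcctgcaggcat
Il21: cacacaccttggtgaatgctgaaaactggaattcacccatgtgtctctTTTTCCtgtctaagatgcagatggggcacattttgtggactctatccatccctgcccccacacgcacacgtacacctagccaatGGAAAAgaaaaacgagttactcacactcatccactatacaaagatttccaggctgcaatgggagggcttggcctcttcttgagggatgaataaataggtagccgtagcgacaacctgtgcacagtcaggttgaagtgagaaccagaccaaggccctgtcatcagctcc
Il4: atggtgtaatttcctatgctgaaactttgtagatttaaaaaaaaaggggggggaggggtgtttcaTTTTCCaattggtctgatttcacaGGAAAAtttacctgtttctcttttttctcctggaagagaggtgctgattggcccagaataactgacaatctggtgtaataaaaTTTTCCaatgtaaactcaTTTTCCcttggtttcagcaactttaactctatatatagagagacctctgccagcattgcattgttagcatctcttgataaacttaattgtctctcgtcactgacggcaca
Ifng: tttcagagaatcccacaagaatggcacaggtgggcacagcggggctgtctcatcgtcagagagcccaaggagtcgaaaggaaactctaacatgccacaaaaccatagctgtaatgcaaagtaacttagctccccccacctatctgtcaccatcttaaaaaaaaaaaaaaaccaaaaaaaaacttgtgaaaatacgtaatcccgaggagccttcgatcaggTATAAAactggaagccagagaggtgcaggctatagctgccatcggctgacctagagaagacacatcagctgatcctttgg
Il2ra: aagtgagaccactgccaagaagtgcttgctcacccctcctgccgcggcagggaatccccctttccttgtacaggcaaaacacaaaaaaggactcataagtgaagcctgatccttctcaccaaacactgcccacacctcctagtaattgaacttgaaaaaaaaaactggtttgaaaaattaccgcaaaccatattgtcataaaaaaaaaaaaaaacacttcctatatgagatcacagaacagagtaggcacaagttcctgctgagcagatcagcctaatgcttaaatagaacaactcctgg
GGAAAA or its complement was present 2 times in the Il2 window, 2 times in that of Il21 and 4 times in that of Il4. These letters were not found in the Ifng and Il2ra windows. The shorter GGAAA, which is not marked, does occur in the Ifng window and its complement TTTCC in that of Il2ra. Of 32851 RefSeq promoter windows of this length 23.4% hold GGAAAA or its complement, so their presence is common. The TATA letters begin at position -31 of Il2 and -30 of Ifng, counted from the transcript start, and 13.6% of all windows hold them. A match of letters describes the window and is not evidence that a factor bound there in these cells.

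The markers of the sort followed the labels. Il2ra, the gene of CD25, read 10.02, 9.69 and 9.81 (log2 units, as for all levels given here) on the Treg arrays of replicates 1, 2 and 4, against 6.54, 6.41, 5.77 and 5.96 on the CD45RBlow arrays of replicates 1 to 4. Every Treg array lay above every CD45RBlow array, and the difference was 3.67 (SE 0.20, adjusted p = 2.68e-07), or 12.8-fold (95% interval on the log2 scale 3.24 to 4.11). Throughout, values of Treg are listed in the order of replicates 1, 2 and 4 and those of CD45RBlow in the order 1 to 4. A difference is the Treg mean minus the CD45RBlow mean in log2 units, and the adjusted p is from limma with Benjamini-Hochberg adjustment over all 1246 probe sets. Sdc4, the heparan sulfate proteoglycan syndecan 4, read 8.70, 8.87 and 8.25 in Treg and 5.45, 5.68, 5.05 and 5.04 in CD45RBlow, 9.87-fold apart with no overlap (3.30 (SE 0.18, adjusted p = 2.99e-07)). On the CD45RBhigh arrays Il2ra read 4.10, 3.89, 3.85 and 4.45 and Sdc4 4.96, 4.98, 4.88 and 4.65, so that CD45RBlow cells stood above them for Il2ra and close to them for Sdc4.

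On the other side, Cxcr6, a chemokine receptor of effector and tissue-resident T cells, read 11.26, 11.37, 10.95 and 11.18 in CD45RBlow and 7.86, 7.86 and 7.79 in Treg, 10.2-fold lower in Treg (-3.36 (SE 0.16, adjusted p = 1.12e-07)). Ifng, the type 1 helper cytokine, read 9.93, 9.82, 8.86 and 8.67 in CD45RBlow and 6.97, 6.83 and 6.62 in Treg (-2.52 (SE 0.35, adjusted p = 0.000485)). Il4, the type 2 helper cytokine, read 6.87, 7.13, 5.97 and 6.50 in CD45RBlow and 3.66, 3.90 and 4.33 in Treg (-2.65 (SE 0.24, adjusted p = 1.75e-05)). None of these 3 genes overlapped between the populations, and the Treg levels of Cxcr6, Ifng and Il4 were near those of CD45RBhigh cells, which averaged 7.43 ± 0.33, 6.13 ± 0.57 and 4.07 ± 0.08 (SD, n = 4). Of 6 markers of activated or memory T cells 1 was higher in Treg (Il2rb) and 1 lower (Cxcr3). With a block on the replicate number the counts were 1 and 2. Cd44, the adhesion receptor of antigen-experienced cells, read 9.69, 9.33 and 8.72 in Treg and 9.80, 9.90, 8.71 and 8.83 in CD45RBlow, a difference of -0.06 (adjusted p = 0.943). Cd69, an early activation marker, differed by 0.11 (adjusted p = 0.887). With the block the differences were -0.23 (adjusted p = 0.278) for Cd44 and 0.02 (adjusted p = 0.92) for Cd69. Il2ra, Sdc4, Cxcr6, Ifng and Il4 were proposed as markers with results of these data known, so their differences describe the populations and do not test the labels. In sorted bulk RNA, fewer cells that express a gene and less RNA per cell cannot be told apart.

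**Figure D1:**
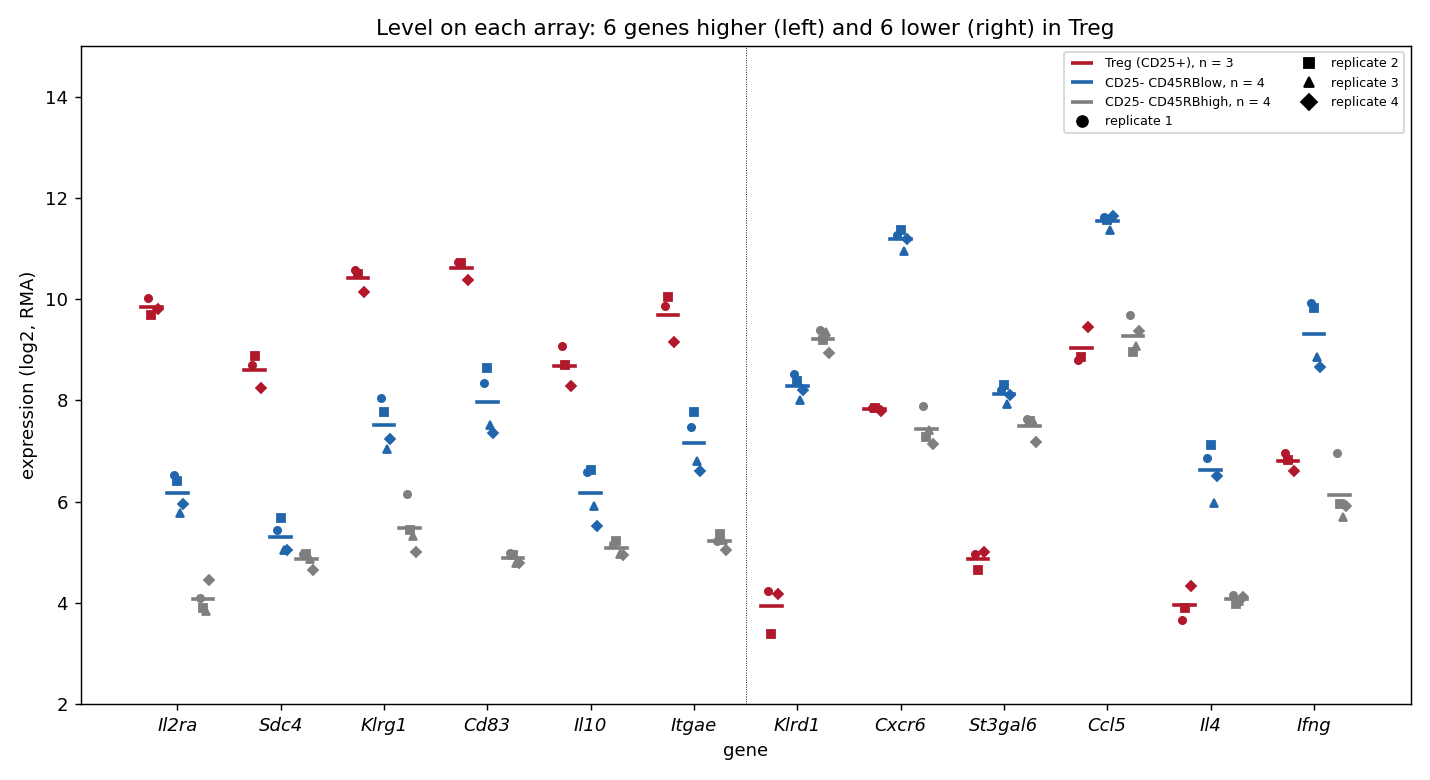
Expression (log2, RMA) of 6 genes that were higher and 6 that were lower in Treg, for each of the 11 arrays, with the population mean as a bar and the replicate number as the marker shape. The red Treg points lie wholly above or below the blue CD45RBlow points in each of the 12 genes, from Il2ra (3.67) to Klrd1 (-4.35).

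Across the chip, 156 of 1246 probe sets (12.5%) differed between the populations at an adjusted p under 0.05, 84 higher in Treg (6.74%) and 72 lower (5.78%). Of these, 54 differed at least 2-fold, 22 higher and 32 lower, and 99 kept their call whichever of the 7 arrays was left out. The values of 266 probe sets (21.3%) did not overlap between the populations, among them 155 of the 156 called. The median difference over all probe sets was 0.04, a value that the normalization of the arrays to each other largely sets. Counted by gene, with the brightest probe set for each, 67 of 909 named genes were higher in Treg (7.37%) and 52 were lower (5.72%), and these shares are the background for the counts in gene lists that follow.

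The 7 arrays had median levels from 4.85 to 4.94. Correlations across probe sets, which are not independent replicates, were 0.991 to 0.998 between arrays of the same population and 0.972 to 0.980 between arrays of different populations. Replicates 1 and 2 stood apart from replicates 3 and 4: over all 11 arrays, 257 probe sets (20.6%) differed across this split with the population in the fit. Treg has no replicate 3, so differences without a block compare means with unlike shares of the 2 sides of the split. In CD45RBlow, 69 of the 156 called probe sets were higher on both arrays of replicates 1 and 2 than on both of 3 and 4, and 26 were lower. These 2 counts were made among the called probe sets only, so no share over the chip stands beside them. The deviations of Treg and CD45RBlow arrays of the same number from their population means correlated at 0.56, 0.46 and 0.55 for replicates 1, 2 and 4. Unlike numbers on the same side of that split correlated as well, at 0.58 for Treg replicate 4 with CD45RBlow replicate 3 and 0.47 for Treg replicate 1 with CD45RBlow replicate 2. These values therefore do not show that equal numbers mark matched samples. With the replicate number as a block in the fit, 245 probe sets (19.7%) passed the threshold, 112 higher and 133 lower, among them 152 of the 156 called without it. By gene, the blocked fit called 10.0% of named genes higher and 10.6% lower. Genes called only in the blocked fit are given below with that adjusted p, named as blocked. The difference printed beside it is from the fit without the block, while the blocked adjusted p belongs to the blocked difference. That blocked difference was -1.02 for Chsy1, -0.80 for Ccr9, -1.41 for Il22, 0.63 for Notch2 and 0.68 for Igfbp7.

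**Figure D2:**
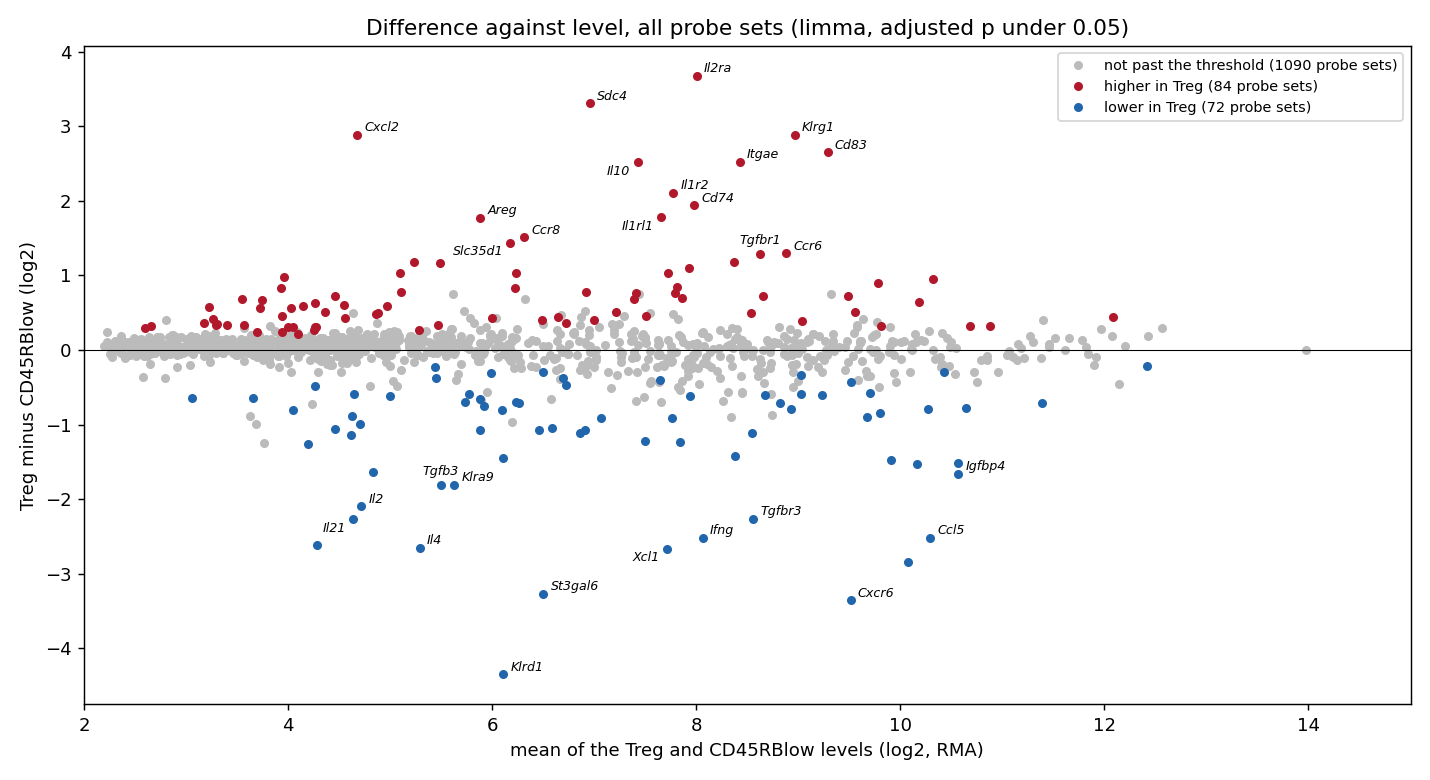
Difference between Treg and CD45RBlow (log2) against the mean level of both for all 1246 probe sets, with the 84 higher and 72 lower probe sets coloured and the largest named. The lower side reaches -4.35 (Klrd1) and the higher side 3.67 (Il2ra), and called genes occur at all levels.

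Molecules known from Treg formed the most one-sided list: 13 of 15 measured genes were higher in Treg, none was lower, and the median difference was 1.78 against 0.05 over all named genes. The list was drawn up with earlier results of these data known, so its count is a description. It names 30 genes, of which 15 were measured, and its largest difference is that of Il2ra, the gene of the CD25 used for sorting. Klrg1, an inhibitory lectin receptor that marks differentiated Treg, read 10.58, 10.50 and 10.15 in Treg and 8.04, 7.77, 7.04 and 7.25 in CD45RBlow (2.89 (SE 0.28, adjusted p = 3.46e-05)). Cd83, a surface glycoprotein of activated lymphocytes and dendritic cells, read 10.74, 10.72 and 10.37 and 8.34, 8.65, 7.51 and 7.35 (2.65 (SE 0.27, adjusted p = 4.46e-05)). Itgae, the alpha chain of the E-cadherin-binding integrin CD103, read 9.87, 10.04 and 9.15 and 7.48, 7.77, 6.80 and 6.61 (2.52 (SE 0.28, adjusted p = 8.27e-05)). For these 3 genes the lowest Treg array exceeded the highest CD45RBlow array by over 1 log2 unit. On the same genes CD45RBhigh cells averaged 5.48 ± 0.48, 4.88 ± 0.10 and 5.22 ± 0.13 (SD, n = 4), below both other populations.

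The list further held receptors and factors with smaller gains. Il1r2, the decoy receptor for interleukin 1, read 9.04, 9.25 and 8.18 in Treg and 7.08, 7.29, 6.42 and 6.10 in CD45RBlow (2.10 (SE 0.30, adjusted p = 0.000489)). Il1rl1, which encodes the alarmin receptor ST2, read 8.95, 8.49 and 8.17 and 7.15, 7.19, 6.07 and 6.63 (1.78 (SE 0.26, adjusted p = 0.000735)), and a second probe set of the gene differed by 0.51 in the same direction (adjusted p = 0.00239). Areg, the epidermal growth factor family member amphiregulin made by tissue-repairing Treg, read 7.21, 6.98 and 6.13 and 5.67, 5.54, 4.61 and 4.17 (1.77 (SE 0.36, adjusted p = 0.00643)). In Treg replicate 4 and CD45RBlow replicates 3 and 4 these 3 genes were lower than on the other arrays of their population. Prdm1, encoding the transcription factor Blimp-1, differed by 0.77 (adjusted p = 0.00038). Tgfb1, the main transforming growth factor beta, read 9.46, 9.76 and 10.39 in Treg and 9.35, 9.24, 10.12 and 9.91 in CD45RBlow, overlapping, with a difference of 0.21 (adjusted p = 0.784), blocked adjusted p = 0.0826. Ccr4, a skin-homing chemokine receptor, also overlapped (7.20, 6.75 and 6.04 against 6.47, 6.60, 5.15 and 5.70, difference 0.68 (adjusted p = 0.281), blocked adjusted p = 0.162). Of all 1246 probe sets, 644 kept 1 direction in the 3 pairs of the same number, so this trait is common. Both genes were higher in Treg in each of these pairs. With the block on only those 6 arrays both passed (Tgfb1 0.37, adjusted p = 0.0231, and Ccr4 0.41, adjusted p = 0.0287), an alternative chosen after seeing the data.

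Of 34 cytokine genes measured, 3 were higher and 5 lower in Treg (4 and 7 with the block), with a median difference of 0.07. In both populations 7 of the 34 were near background, taken here as a mean in the lowest 25% of array values (under 3.64). Of the 156 called probe sets, 21 were near background in at least 1 population, which limits their differences. Il21, Cxcl2, Il12rb2, Havcr2, Fzd6, Dll1 and Gcnt2 are among them. Il10, the inhibitory cytokine, read 9.07, 8.70 and 8.28 in Treg and 6.60, 6.63, 5.91 and 5.52 in CD45RBlow, 5.73-fold higher with no overlap (2.52 (SE 0.26, adjusted p = 5.28e-05)). Csf1, macrophage colony-stimulating factor, read 8.33, 8.40 and 7.96 and 7.26, 7.26, 7.22 and 7.07 (1.03 (SE 0.11, adjusted p = 4.57e-05)), and its second probe set differed by 1.03 as well (adjusted p = 0.000178). Il18, an inflammatory cytokine of the interleukin 1 family, differed by 0.72 (adjusted p = 0.0245), which did not pass without Treg replicates 1 or 2 or CD45RBlow replicate 4 (adjusted p = 0.0602 to 0.111).

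The 5 cytokine genes that were lower are the 4 whose promoters are printed above and Csf2. Il2, the T cell growth factor, read 6.06, 6.42, 5.42 and 5.16 in CD45RBlow and 3.64, 3.73 and 3.64 in Treg (-2.09 (SE 0.24, adjusted p = 0.000107)), where the Treg values lie at the edge of background, so that the fold is limited by the background. Il21, the cytokine of follicular helper cells, read 6.65, 7.39, 4.71 and 4.34 in CD45RBlow and 3.63, 3.63 and 3.26 in Treg (-2.27 (SE 0.61, adjusted p = 0.0304)), where the Treg level is near background. All 4 CD45RBlow arrays exceeded all Treg arrays, yet replicates 1 and 2 of CD45RBlow stood far above 3 and 4, and the call ended without Treg replicates 1, 2 or 4 or CD45RBlow replicate 1 (adjusted p = 0.0803 to 0.0937). Csf2, which encodes GM-CSF, read 5.51, 5.10, 4.75 and 4.91 and 4.20, 4.12 and 4.23 (-0.89 (SE 0.15, adjusted p = 0.00244)). Il22, an epithelial-acting cytokine, had the same split within CD45RBlow (5.12, 5.40, 3.42 and 3.60, against 3.28, 3.25 and 2.88 in Treg) and did not pass without the block (-1.25 (adjusted p = 0.0871)), while it passed with it (blocked adjusted p = 0.00751). On CD45RBhigh arrays Il2, Il21, Csf2 and Il22 averaged 3.35 ± 0.10, 3.15 ± 0.21, 4.10 ± 0.16 and 2.68 ± 0.10 (SD, n = 4), close to the Treg levels.

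Among 49 cytokine receptors, 8 were higher and 7 lower in Treg, and the replicate block raised these counts to 12 and 8. The 8 higher calls fell to 4 without Treg replicate 1 and to 5 without Treg replicate 2 or CD45RBlow replicates 3 or 4, taken 1 at a time. The 3 chains of the interleukin 2 receptor went different ways. Beside Il2ra, Il2rb, the signalling beta chain shared with the interleukin 15 receptor, read 10.97, 10.80 and 10.59 in Treg and 10.19, 10.01, 9.48 and 9.68 in CD45RBlow (0.95 (SE 0.21, adjusted p = 0.00986)), with the call lost without Treg replicate 1 (adjusted p = 0.0528). Il2rg, the common gamma chain, was slightly lower at 12.29, 12.26 and 12.38 against 12.59, 12.46, 12.49 and 12.57 (-0.22 (SE 0.06, adjusted p = 0.029)), but the call was lost without Treg replicates 1 or 2 or CD45RBlow replicates 1 or 4 (adjusted p = 0.0769 to 0.111). Il7r, the interleukin 7 receptor alpha chain, read 10.38, 10.12 and 10.25 in Treg and 11.02, 11.09, 10.92 and 11.07 in CD45RBlow (-0.77 (SE 0.08, adjusted p = 3.5e-05)), and CD45RBhigh cells averaged 11.53 ± 0.07 (SD, n = 4), so the order was Treg, CD45RBlow, CD45RBhigh with no overlap between neighbours.

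Both chains of the interleukin 10 receptor passed the test, higher in Treg. Il10rb, the chain shared by interleukin 10 and interleukin 22 receptors, read 9.12, 9.05 and 8.88 and 8.33, 8.41, 8.18 and 8.24 (0.73 (SE 0.09, adjusted p = 0.000198)). Il10ra, the ligand-binding chain, read 8.09, 8.12 and 8.42 and 7.46, 7.44, 7.53 and 7.63 (0.70 (SE 0.19, adjusted p = 0.0333)), without overlap, but its call ended when any 1 of the 7 arrays was left out, with adjusted p from 0.0517 to 0.129. Ifngr1, the interferon gamma receptor chain that binds the ligand, differed by 0.73 (adjusted p = 0.0414), and Il6st, the gp130 chain of the interleukin 6 family receptors, by 0.32 (adjusted p = 0.045). These calls ended for Ifngr1 without Treg replicates 1, 2 or 4 or CD45RBlow replicates 3 or 4 (adjusted p = 0.0584 to 0.149) and for Il6st when any 1 array was left out (adjusted p = 0.0507 to 0.168).

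Among the 7 receptors lower in Treg, Il12rb2, the interleukin 12 receptor chain of type 1 helper cells, read 5.09, 4.75, 5.05 and 4.41 in CD45RBlow and 3.47, 3.56 and 3.64 in Treg (-1.26 (SE 0.16, adjusted p = 0.000185)), with Treg values at the edge of background. Il18rap, the accessory chain of the interleukin 18 receptor, read 6.61, 6.67, 6.24 and 6.14 and 5.38, 5.41 and 5.24 (-1.07 (SE 0.12, adjusted p = 9.99e-05)), and its partner Il18r1 read 8.32, 8.56, 7.91 and 8.20 and 7.79, 7.62 and 7.48 (-0.62 (SE 0.13, adjusted p = 0.00926)). Both chains of that receptor thus differed in the same direction with no overlap. Il17rb, which binds interleukin 25, read 7.36, 7.46, 7.05 and 7.93 and 6.39, 6.35 and 6.39 (-1.08 (SE 0.17, adjusted p = 0.0015)). Il1r1, the signalling interleukin 1 receptor, differed by -0.62 (adjusted p = 0.0313), opposite to the decoy Il1r2, and its call ended without Treg replicates 1, 2 or 4 or CD45RBlow replicates 1 or 2 (adjusted p = 0.0616 to 0.117). Il3ra, the interleukin 3 receptor alpha chain, read 7.09, 7.02 and 7.40 in Treg and 6.56, 6.62, 6.61 and 6.79 in CD45RBlow and passed only with the block (0.53 (adjusted p = 0.0537), blocked adjusted p = 0.00251). Il9r, Ifngr2 and Il27ra, receptor chains for interleukin 9, interferon gamma and interleukin 27, differed by -0.30 (adjusted p = 0.113), 0.25 (adjusted p = 0.134) and -0.18 (adjusted p = 0.191). Ifngr2 passed with the block (blocked 0.0425).

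**Figure D3:**
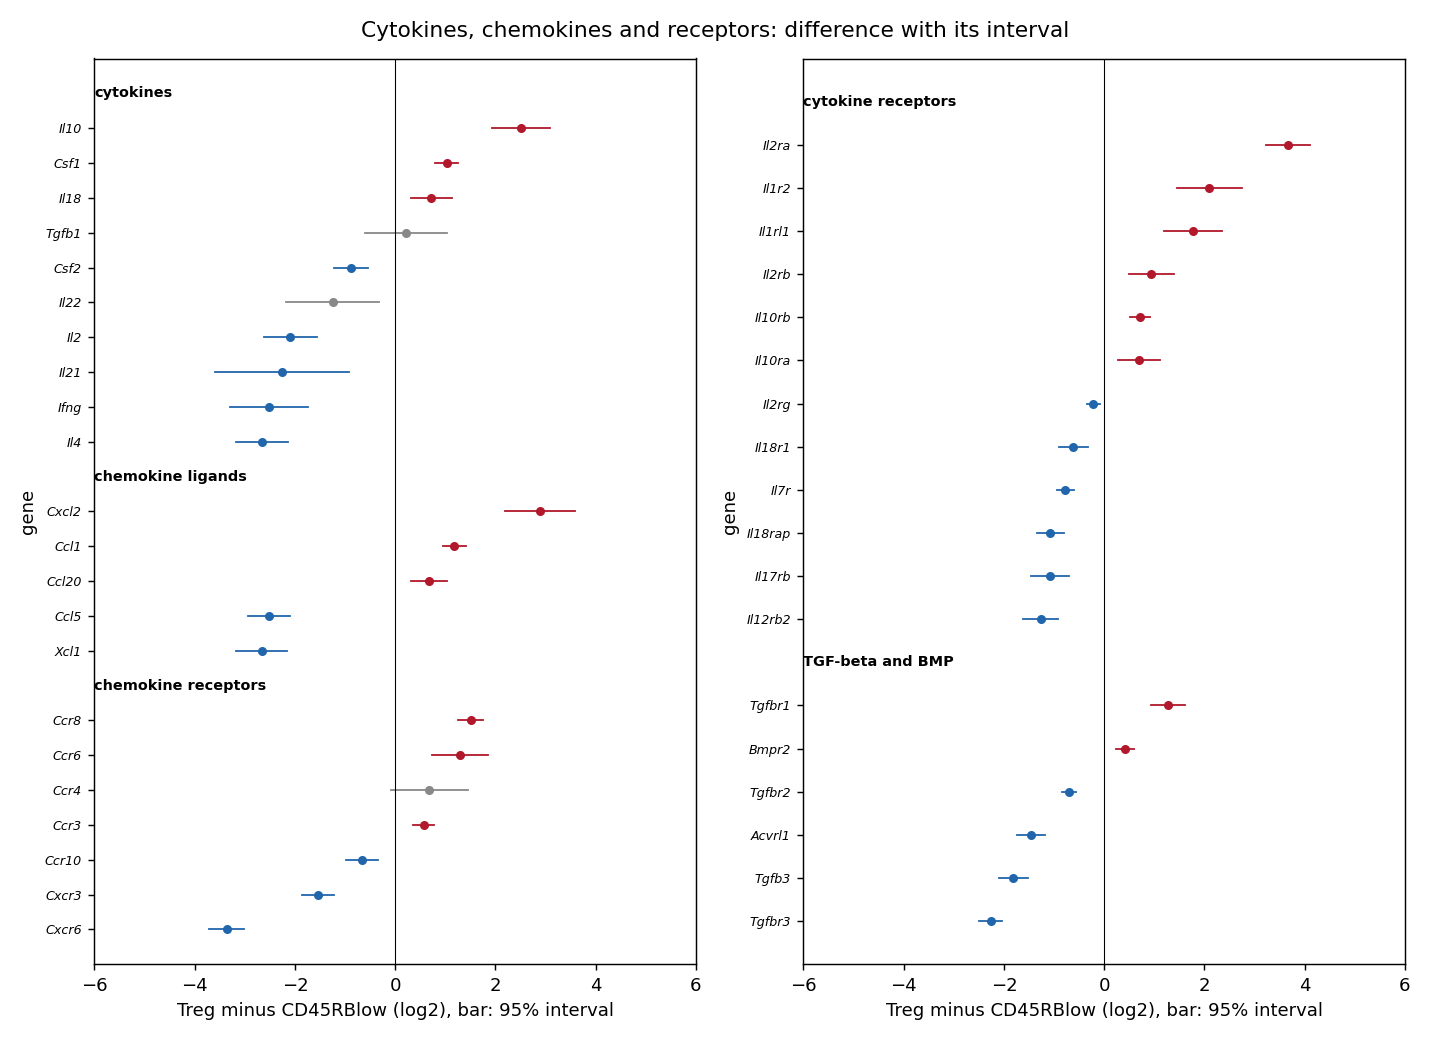
Difference between Treg and CD45RBlow (log2) for cytokines, chemokines and their receptors, with 95% intervals from limma, red where higher in Treg at an adjusted p under 0.05, blue where lower and grey where not past the threshold. Il10 (2.52) opens the cytokine panel and Il4 (-2.65) closes it, and Tgfb1 spans 0.

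Chemokine receptors, which steer T cells to tissues, had 3 of 20 genes higher and 3 lower, and 3 higher and 7 lower with the block. Ccr8, a receptor of skin and tissue Treg, read 6.84, 7.29 and 7.08 in Treg and 5.57, 5.72, 5.49 and 5.45 in CD45RBlow (1.51 (SE 0.11, adjusted p = 4.07e-06)). Ccr6, the receptor for Ccl20 on cells bound for mucosa, read 9.74, 9.70 and 9.15 and 8.37, 8.89, 7.62 and 8.07 (1.30 (SE 0.26, adjusted p = 0.00598)). Ccr3, the eotaxin receptor, was higher at a low level (4.54, 4.24 and 4.16 against 3.89, 3.68, 3.68 and 3.73, 0.57 (SE 0.10, adjusted p = 0.00244)). Beside Cxcr6, the type 1 receptor Cxcr3 read 11.02, 11.09, 10.73 and 10.89 in CD45RBlow and 9.26, 9.60 and 9.33 in Treg (-1.54 (SE 0.15, adjusted p = 2.77e-05)), and both stood above the CD45RBhigh mean of 7.46 ± 0.27 (SD, n = 4). Ccr10, a receptor of skin-homing cells, read 6.42, 6.36, 5.74 and 6.34 and 5.62, 5.62 and 5.43 (-0.66 (SE 0.14, adjusted p = 0.00964)).

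The blocked fit added genes whose arrays ran in parallel by replicate number. Ccr9, the gut-homing receptor, read 9.37, 9.42, 8.40 and 8.90 in CD45RBlow and 8.72, 8.77 and 7.83 in Treg, overlapping between numbers but lower in Treg in each of the 3 pairs (-0.58 (adjusted p = 0.332), blocked adjusted p = 0.0014). A single direction in the 3 pairs was shared by 644 of the 1246 probe sets. Ccr7, which brings T cells into lymph nodes, passed neither without nor with the block and differed by -0.32 (adjusted p = 0.0756) (blocked 0.0755). For Ccr1 the difference was 0.17 (adjusted p = 0.0756) and for Ackr4, a decoy receptor, 0.23 (adjusted p = 0.103).

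Of 29 chemokine ligands, 3 were higher and 2 lower (4 and 3 with the block), and 9 were near background in both populations. Cxcl2, a neutrophil-attracting chemokine, read 6.78, 6.51 and 5.08 in Treg and 3.30, 3.42, 3.27 and 2.95 in CD45RBlow (2.89 (SE 0.31, adjusted p = 7.6e-05)). The Treg arrays spread widely, all above the CD45RBlow arrays, which lay near background, so the 7.4-fold is limited by the background. Ccl1, the ligand of Ccr8, read 5.68, 5.92 and 5.86 and 4.67, 4.89, 4.51 and 4.48 (1.18 (SE 0.11, adjusted p = 1.75e-05)), so ligand and receptor were both higher in Treg. Ccl20, the ligand of Ccr6, read 4.53, 4.06 and 3.66 and 3.42, 3.49, 3.42 and 3.30 (0.67 (SE 0.16, adjusted p = 0.0194)), which did not pass without Treg replicates 1 or 2 (adjusted p = 0.0512 to 0.0593). Ccl5, an inflammatory chemokine stored by effector cells, read 11.62, 11.56, 11.37 and 11.64 in CD45RBlow and 8.79, 8.86 and 9.44 in Treg (-2.52 (SE 0.19, adjusted p = 4.07e-06)), and Xcl1, lymphotactin, read 9.30, 9.45, 8.96 and 8.47 and 6.20, 6.18 and 6.77 (-2.66 (SE 0.23, adjusted p = 1.56e-05)). For Ccl5 and Xcl1 the Treg levels were near the CD45RBhigh means of 9.27 ± 0.33 and 6.54 ± 0.24 (SD, n = 4). Cxcl13, Ccl25, Cx3cl1 and Ccl17 differed by 0.20 (adjusted p = 0.0611), -0.41 (adjusted p = 0.074), 0.24 (adjusted p = 0.111) and 0.14 (adjusted p = 0.268). Ccl25 and Cx3cl1 passed with the block (blocked 0.017 and 0.0323).

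Killer-cell lectin-like receptors, which bind class I molecules or cadherins and set the threshold of cytotoxic cells, had 1 of 18 genes higher (Klrg1) and 4 lower (1 and 5 with the block), with 9 near background in both populations. Klrd1, which encodes the CD94 chain of the CD94/NKG2 receptor, gave the largest difference on the chip: 8.53, 8.39, 8.01 and 8.20 in CD45RBlow against 4.23, 3.40 and 4.17 in Treg, 20.4-fold lower (-4.35 (SE 0.20, adjusted p = 1.12e-07)). Its value on Treg replicate 2 lay under the background cut of 3.64, so the fold may be limited by the background. On CD45RBhigh arrays Klrd1 read 9.40, 9.20, 9.35 and 8.94, above both CD45RBlow populations. Klrc1, the NKG2A partner of CD94, read 5.50, 5.34, 4.90 and 5.06 and 4.19, 4.22 and 4.20 (-0.99 (SE 0.15, adjusted p = 0.00104)). Klra9, a Ly49 receptor, read 6.59, 6.33, 6.55 and 6.65 and 4.54, 5.06 and 4.57 (-1.81 (SE 0.22, adjusted p = 0.000169)), from a probe set that may bind several members of its family. Klrb1f differed by -1.06 (adjusted p = 0.0256), with the call lost without Treg replicates 2 or 4 or CD45RBlow replicates 1 or 2 (adjusted p = 0.0519 to 0.107). Klra3, Klrk1, Clec2h and Klra4 differed by -0.37 (adjusted p = 0.119), -0.23 (adjusted p = 0.142), 0.12 (adjusted p = 0.314) and 0.08 (adjusted p = 0.428), all at levels near background. Klra3 passed with the block (blocked 0.0136).

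Klrd1, Klrc1 and Xcl1 are also marker genes of natural killer and CD8 T cells. Of 6 such markers measured (of 12 listed) 3 were lower in Treg and none was higher, and their mean level was 3.85 to 4.08 on Treg arrays, 5.26 to 5.64 on CD45RBlow arrays and 5.01 to 5.29 on CD45RBhigh arrays. Klrk1 and Klra3 lay near background in all populations, and Klra8 read 3.78, 3.90 and 3.93 in Treg and 4.01, 3.76, 4.03 and 4.01 in CD45RBlow. The part of such cells in the differences of Klrd1, Klrc1, Xcl1 and Ccl5 was not tested.

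Ligands and receptors of the transforming growth factor beta and BMP family had 4 of 38 genes higher and 4 lower, the same numbers as with the block, and the higher calls fell to 2 without Treg replicate 1 or CD45RBlow replicate 1. The receptors for transforming growth factor beta itself parted. Tgfbr1, the signalling type I receptor, read 9.63, 9.09 and 9.07 in Treg and 8.05, 8.24, 7.71 and 7.93 in CD45RBlow (1.28 (SE 0.15, adjusted p = 0.000164)). Tgfbr2, the ligand-binding type II receptor, read 11.10, 11.02 and 10.98 and 11.76, 11.75, 11.64 and 11.82 (-0.71 (SE 0.06, adjusted p = 1.75e-05)), and its second probe set differed by -1.04 (adjusted p = 0.00249). Tgfbr3, the co-receptor betaglycan, read 7.54, 7.24 and 7.50 and 9.62, 9.54, 9.70 and 9.91, 4.81-fold lower in Treg (-2.27 (SE 0.10, adjusted p = 1.12e-07)). None of the 3 receptors overlapped between the populations. CD45RBhigh cells averaged 10.41 ± 0.10 for Tgfbr3 and 11.92 ± 0.05 for Tgfbr2 (SD, n = 4), above the means of both.

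Acvrl1, the type I receptor ALK1, read 6.77, 6.52, 6.98 and 7.06 in CD45RBlow and 5.27, 5.42 and 5.45 in Treg (-1.45 (SE 0.13, adjusted p = 1.56e-05)). Among ligands, Tgfb3 read 6.54, 6.41, 6.16 and 6.50 and 4.69, 4.47 and 4.60 (-1.82 (SE 0.13, adjusted p = 3.31e-06)), lower in Treg where Tgfb1 overlapped. Bmpr2, the BMP type II receptor, was higher at a low level (4.84, 4.91 and 4.54 against 4.34 on all 4 CD45RBlow arrays, 0.42 (SE 0.08, adjusted p = 0.00561)). Bmp8a and Bmp2, BMP ligands at low levels, differed by 0.22 (adjusted p = 0.0316) and 0.34 (adjusted p = 0.0484). Their calls ended for Bmp8a without Treg replicates 1 or 4 or CD45RBlow replicates 1 or 4 (adjusted p = 0.0737 to 0.113) and with the block (blocked adjusted p = 0.0635), and for Bmp2 without Treg replicates 1, 2 or 4 or CD45RBlow replicates 1, 2 or 3 (adjusted p = 0.0717 to 0.136). Bmpr1a, Gdf10, Nog and Acvr1 differed by 0.32 (adjusted p = 0.0549), 0.15 (adjusted p = 0.254), 0.14 (adjusted p = 0.319) and 0.29 (adjusted p = 0.322). Bmpr1a passed with the block (blocked 0.0159).

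Growth factors and their receptors had 6 of 56 genes higher and 2 lower (7 and 3 with the block), with 23 near background in both populations, and 3 higher calls were left without Treg replicate 1. Igf1r, the insulin-like growth factor 1 receptor, read 9.32, 9.12 and 8.45 in Treg and 8.02, 8.36, 7.35 and 7.41 in CD45RBlow (1.18 (SE 0.26, adjusted p = 0.00986)), but the call was lost without Treg replicate 1 (adjusted p = 0.0548). Igf2r, which carries mannose 6-phosphate proteins to lysosomes and clears insulin-like growth factor 2, read 10.25, 10.12 and 10.32 and 9.44, 9.27, 9.20 and 9.42 (0.90 (SE 0.09, adjusted p = 3.85e-05)). Igfbp4, a binding protein that holds these growth factors, read 11.38, 10.92, 11.49 and 11.81 in CD45RBlow and 9.96, 9.55 and 9.70 in Treg (-1.66 (SE 0.17, adjusted p = 5.22e-05)), and its other 2 probe sets differed by -1.47 and -1.52. CD45RBhigh cells averaged 12.48 ± 0.09 (SD, n = 4) for Igfbp4, so its order was the reverse of that of Igf1r, for which they averaged 7.11 ± 0.14.

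Flt3l, the dendritic cell growth factor, differed by -0.61 (adjusted p = 0.0209), which did not pass without Treg replicates 1 or 2 (adjusted p = 0.0861 to 0.0985). Vegfc, Hgf and Pdgfb, factors for lymphatic vessels, epithelium and mesenchyme, were higher at low levels (0.42 (adjusted p = 0.00518), 0.32 (adjusted p = 0.02) and 0.27 (adjusted p = 0.0355)), of which Hgf ended without Treg replicate 1 or CD45RBlow replicates 1 or 4 (adjusted p = 0.0521 to 0.0937) and Pdgfb without Treg replicates 1 or 4 or CD45RBlow replicates 2, 3 or 4 (adjusted p = 0.0717 to 0.15). Igfbp7 read 5.84, 5.96 and 6.17 in Treg and 4.94, 5.01, 4.97 and 6.03 in CD45RBlow, where 1 array stood with the Treg arrays (0.75 (adjusted p = 0.136), blocked 0.00493). Fgf13 read 8.85, 9.38, 8.59 and 8.37 and 8.11, 8.36 and 7.21, and passed only with the block (-0.90 (adjusted p = 0.092), blocked 0.000109). Fgf1 and Fgfr3 differed by 0.24 (adjusted p = 0.105) and 0.22 (adjusted p = 0.15).

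Adhesion molecules had 4 of 21 genes higher and none lower, and 5 higher and 2 lower with the block. Beside Itgae, Cd2, the receptor for CD48 on partner cells, read 12.39, 12.26 and 12.27 in Treg and 11.93, 11.93, 11.69 and 11.90 in CD45RBlow (0.45 (SE 0.07, adjusted p = 0.00154)). Selp, which encodes P-selectin, read 5.06, 4.95 and 5.28 and 4.56, 4.60, 4.51 and 4.79 (0.48 (SE 0.09, adjusted p = 0.0049)). Selp is also a platelet marker, and the mean level of 4 platelet and erythroid markers was 3.82 to 4.16 in Treg and 3.75 to 3.93 in CD45RBlow, with only Selp called. Lamp1, a lysosomal membrane glycoprotein, differed by 0.31 (adjusted p = 0.0166), with the call lost without Treg replicates 1 or 4 (adjusted p = 0.0642 to 0.0685). Icam1, Madcam1 and Vcam1 differed by 0.28 (adjusted p = 0.122), 0.19 (adjusted p = 0.235) and -0.20 (adjusted p = 0.237).

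Galectins, which crosslink galactose-bearing glycans on T cells, had none of 9 genes called by limma without the block, with 2 at an unadjusted p under 0.05, and 1 lower with the block. Lgals9, which encodes galectin 9, the ligand of Tim-3, read 10.15, 9.97, 10.07 and 9.98 in CD45RBlow and 9.20, 9.61 and 9.84 in Treg (-0.49 (adjusted p = 0.0861), blocked 0.0478). Lgals1 read 12.09, 12.12 and 12.11 and 11.91, 12.02, 11.51 and 11.85, a difference of 0.29 (adjusted p = 0.169), at a level near the top of the chip in both, against 10.63 ± 0.16 in CD45RBhigh (SD, n = 4). Lgals3 and Lgals12 differed by -0.23 (adjusted p = 0.45) and 0.11 (adjusted p = 0.257). Havcr2, which encodes Tim-3, stood outside the lists and was higher in Treg at 4.30, 4.47 and 4.26 against 3.60, 3.39, 3.60 and 3.47 (0.83 (SE 0.08, adjusted p = 2.77e-05)).

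Siglecs and other C-type lectins had 1 of 54 genes higher and 2 lower, smaller shares than the background in both directions, and 29 of the 54 lay near background in both populations. Cd72, a lectin-like receptor of B cells, read 8.41, 8.17 and 8.14 in Treg and 7.59, 7.60, 7.21 and 7.17 in CD45RBlow (0.85 (SE 0.14, adjusted p = 0.00154)). Cd93, a receptor of endothelial and immature cells, read 5.50, 4.95, 4.83 and 5.49 and 3.97, 4.20 and 3.97 (-1.14 (SE 0.16, adjusted p = 0.000454)). Cd22, the B cell Siglec, differed by -0.30 (adjusted p = 0.0235), but the call was lost without Treg replicates 1, 2 or 4 or CD45RBlow replicates 2 or 3 (adjusted p = 0.0514 to 0.0892). Ly75, the DEC-205 lectin, read 6.38, 6.35, 6.09 and 6.07 and 5.67, 5.87 and 5.13 and passed only with the block (-0.67 (adjusted p = 0.0617), blocked 0.000496). Olr1, Siglec15 and Mag differed by 0.19 (adjusted p = 0.0849), 0.21 (adjusted p = 0.117) and 0.18 (adjusted p = 0.154).

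Cd74, the invariant chain that guides class II molecules and can carry chondroitin sulfate, read 8.90, 9.08 and 8.86 in Treg and 7.16, 7.17, 6.72 and 6.97 in CD45RBlow (1.94 (SE 0.13, adjusted p = 1.72e-06)). Cd74, Cd83 and Cd72 are prominent in B cells, of whose 5 measured markers (of 10 listed) 1 was higher (Cd72) and 1 lower (Cd22). Their mean level was 6.17 to 6.19 on Treg arrays and 5.83 to 6.11 on CD45RBlow arrays. Fcer2a, the B cell receptor CD23, lay near background in both (3.23, 3.31 and 3.26 and 3.15, 3.25, 3.28 and 3.26), Siglecg differed by 0.21 (adjusted p = 0.302) and Cxcr5 by 0.24 (adjusted p = 0.578). None of 18 myeloid and dendritic cell markers was called by limma without the block (1 at an unadjusted p under 0.05), with mean levels of 3.92 to 3.95 in Treg and 3.93 to 3.97 in CD45RBlow, and with the block 2 were called, both lower. None of 7 endothelial and stromal markers was called (none at an unadjusted p under 0.05), with mean levels of 4.01 to 4.13 and 4.03 to 4.16. Of 5 markers of naive cells only Il7r was called without the block, while 1 was higher and 2 were lower with it, and Il6ra differed by -0.09 (adjusted p = 0.691).

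**Figure D4:**
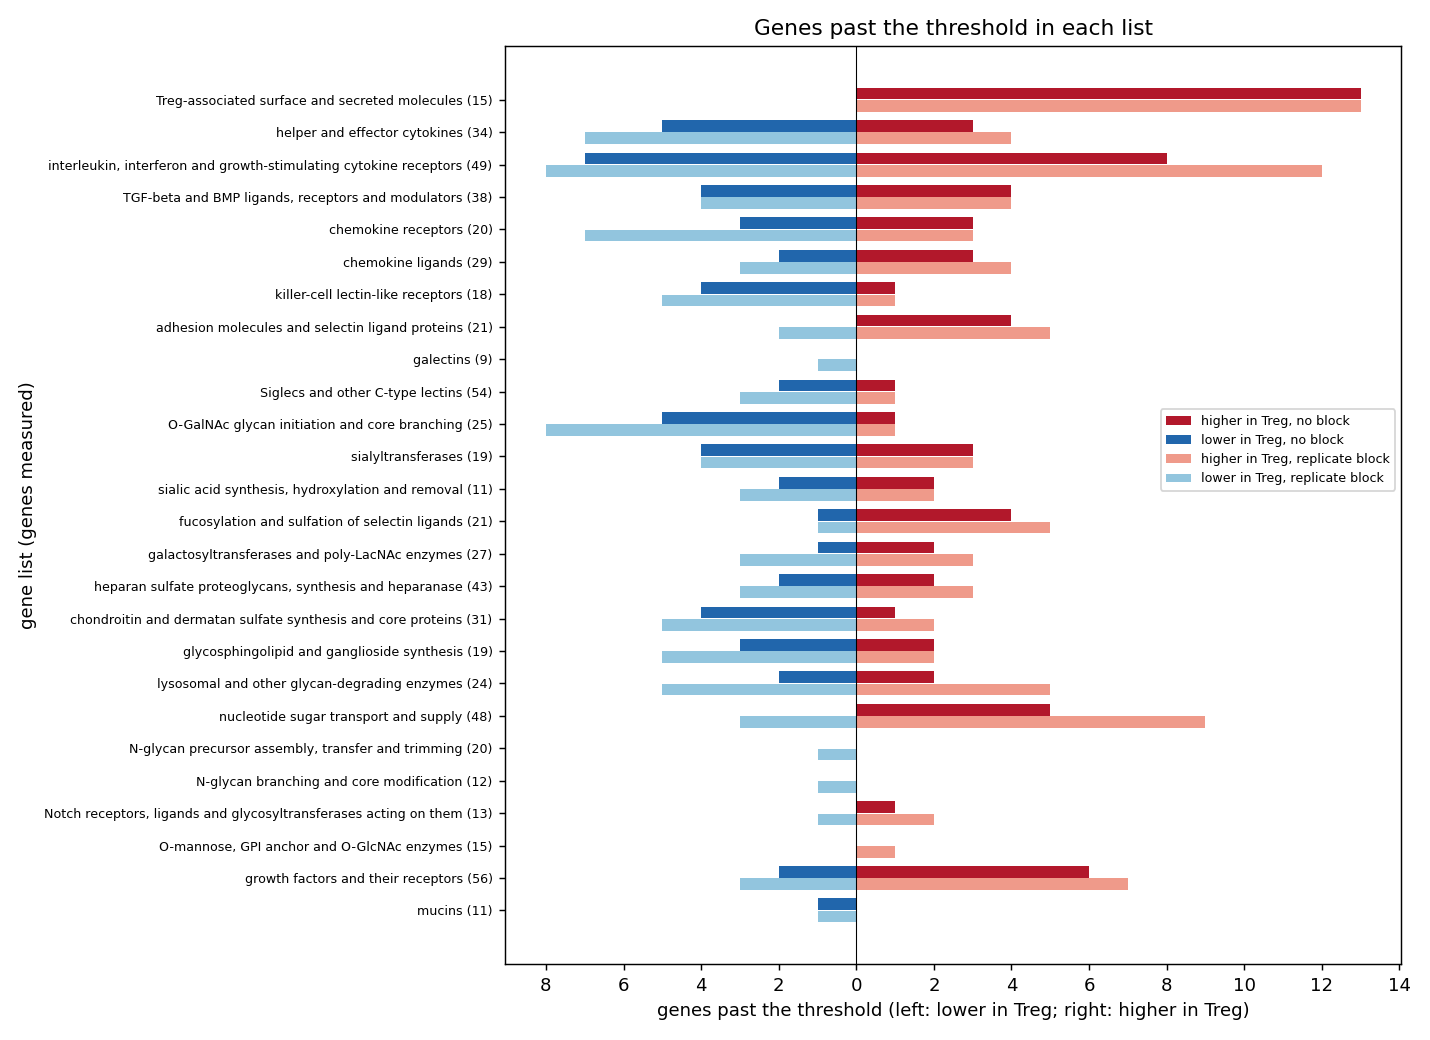
Number of genes past the threshold in each of 26 gene lists, higher in Treg to the right and lower to the left, without the block (dark) and with the replicate block (light). The Treg-associated list has 13 of 15 genes to the right and none to the left, while most lists of glycan enzymes have calls on both sides.

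Sialyltransferases cap glycan chains with sialic acid, which can hide galactose from galectins and forms the ligands of selectins and Siglecs. Of 19 measured, 3 were higher and 4 lower in Treg, with a median difference of 0.09. St3gal6, which makes alpha-2,3 sialyl caps on N-acetyllactosamine used in selectin ligands, read 8.20, 8.29, 7.94 and 8.10 in CD45RBlow and 4.96, 4.64 and 4.997 in Treg, 9.62-fold lower (-3.27 (SE 0.13, adjusted p = 8.16e-08)). On CD45RBhigh arrays St3gal6 averaged 7.50 ± 0.22 (SD, n = 4), so only the Treg arrays were low. St3gal1, which caps core 1 O-glycans, read 9.97, 9.92, 10.61 and 10.41 and 9.22, 9.28 and 9.63 (-0.85 (SE 0.21, adjusted p = 0.02)), which did not pass without Treg replicates 1 or 2 or CD45RBlow replicate 4 (adjusted p = 0.052 to 0.089). St3gal2, which acts on gangliosides and O-glycans, was higher (7.82, 7.64 and 7.74 against 7.10, 7.31, 6.76 and 7.06, 0.68 (SE 0.14, adjusted p = 0.00778)). St6galnac1, which makes sialyl-Tn, read 4.51, 4.99, 4.23 and 4.08 in CD45RBlow and 3.61, 3.62 and 3.70 in Treg (-0.81 (SE 0.17, adjusted p = 0.00845)), the latter at the edge of background.

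St6gal1, the alpha-2,6 sialyltransferase of N-glycans, was at a high level in both (11.71, 11.62 and 11.47 and 11.51, 11.54, 11.23 and 11.47), a difference of 0.16 (adjusted p = 0.313). St3gal4, which like St3gal6 acts in selectin ligand synthesis, read 7.26, 6.82 and 7.000 in Treg and 6.87, 6.81, 6.50 and 6.57 in CD45RBlow (0.34 (adjusted p = 0.0871)). St6galnac4 differed by 0.33 (adjusted p = 0.0296), with the call lost without Treg replicates 1 or 4 or CD45RBlow replicates 1 or 2 (adjusted p = 0.08 to 0.107). St8sia4 and St8sia5, makers of polysialic acid and of higher gangliosides, differed by 0.42 (adjusted p = 0.293) and 0.14 (adjusted p = 0.227).

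Gangliosides are sialylated lipids of the T cell membrane. Ugcg, the glucosylceramide synthase that starts them, read 10.65, 10.50, 10.75 and 10.79 in CD45RBlow and 10.05, 9.72 and 9.87 in Treg (-0.79 (SE 0.09, adjusted p = 0.000123)). St3gal5, which makes the first ganglioside GM3, was higher (6.91, 6.90 and 6.90 against 6.55, 6.57, 6.55 and 6.51, 0.36 (SE 0.07, adjusted p = 0.00769)). St8sia1, which turns GM3 into GD3, read 8.57, 8.49, 8.48 and 8.30 and 7.59, 7.04 and 7.05 (-1.24 (SE 0.13, adjusted p = 4.57e-05)). Of these 3 enzymes the first and the last in the chain were lower and the middle one was higher in Treg. B4galnt1, which makes GM2 from GM3, read 10.68, 10.83, 11.14 and 11.20 and 10.30, 10.46 and 10.85 and passed only with the block (-0.43 (adjusted p = 0.254), blocked 0.00521). In the whole list of 19 glycosphingolipid genes 2 were higher and 3 lower (2 and 5 with the block), and Gal3st1 and B4galt5 differed by 0.15 (adjusted p = 0.271) and -0.25 (adjusted p = 0.253).

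Genes of sialic acid supply and removal had 2 of 11 higher and 2 lower (2 and 3 with the block). Cmah, which hydroxylates CMP-sialic acid to the form with N-glycolyl, the ligand preferred by mouse CD22, read 9.17, 9.07, 9.04 and 9.45 in CD45RBlow and 8.67, 8.37 and 8.36 in Treg (-0.71 (SE 0.14, adjusted p = 0.00584)). Neu3, the sialidase that trims gangliosides at the cell surface, read 5.09, 4.77 and 4.68 in Treg and 4.29, 4.50, 4.03 and 4.17 in CD45RBlow (0.60 (SE 0.12, adjusted p = 0.00693)). Renbp, which interconverts sialic acid precursors, differed by 0.43 (adjusted p = 0.00885). Cmas, which activates sialic acid, differed by -0.30 (adjusted p = 0.0228), but the call was lost without Treg replicates 2 or 4 or CD45RBlow replicates 1 or 4 (adjusted p = 0.051 to 0.0892). Neu1, the lysosomal sialidase, read 8.71, 8.64, 8.82 and 9.03 and 8.41, 8.49 and 8.62 and passed only with the block (-0.30 (adjusted p = 0.167), blocked 0.0212). Slc35a1, the CMP-sialic acid transporter, Nans and Npl differed by 0.17 (adjusted p = 0.389), 0.12 (adjusted p = 0.426) and 0.09 (adjusted p = 0.537).

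O-glycans of the mucin type are begun by the Galnt family of GalNAc-transferases. Of 25 genes in this list 1 was higher and 5 lower, and 1 and 8 with the block. Galnt10 read 9.34, 9.16, 9.35 and 9.43 in CD45RBlow and 8.57, 8.49 and 8.53 in Treg (-0.79 (SE 0.10, adjusted p = 0.000332)) and was the only lower member called whichever array was left out. Galnt6 read 9.92, 9.74, 10.11 and 10.18 and 9.39, 9.25 and 9.61 (-0.57 (SE 0.15, adjusted p = 0.0246)), and Galnt2, a widely expressed initiator, read 8.92, 8.78, 9.07 and 9.11 and 8.30, 8.33 and 8.48 (-0.60 (SE 0.14, adjusted p = 0.0174)). Galnt9 and Galnt12 differed by -0.47 (adjusted p = 0.0237) and -0.34 (adjusted p = 0.0259). These 4 calls ended for Galnt6 without Treg replicates 1 or 2 or CD45RBlow replicates 3 or 4 (adjusted p = 0.0638 to 0.11), for Galnt2 without Treg replicates 1 or 2 (adjusted p = 0.067 to 0.0727), for Galnt9 without Treg replicates 1 or 2 or CD45RBlow replicates 2 or 3 (adjusted p = 0.0623 to 0.1) and for Galnt12 without Treg replicates 1, 2 or 4 or CD45RBlow replicates 2 or 4 (adjusted p = 0.051 to 0.0866). Without Treg replicate 1, or without Treg replicate 2, 1 lower call was left in the list, and without CD45RBlow replicates 2, 3 or 4 there were 3. Galnt14, at a low level, was higher (0.30 (SE 0.06, adjusted p = 0.00855)). Galnt11 differed by -0.28 (adjusted p = 0.203) (blocked 0.0227), C1galt1, which makes core 1, by -0.20 (adjusted p = 0.354), Galnt16 by 0.19 (adjusted p = 0.168) and Galnt18 by 0.11 (adjusted p = 0.424). Ovgp1, listed with the mucins and the only one of 11 called, read 6.82, 6.53, 6.98 and 7.63 and 5.93, 5.55 and 6.28 (-1.07 (SE 0.27, adjusted p = 0.0234)), which did not pass without Treg replicates 1 or 2 (adjusted p = 0.0732 to 0.109).

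Selectin ligands also need fucose and sulfate. Of 21 genes for these steps 4 were higher and 1 lower, and 2 higher calls were left without Treg replicates 1 or 4 or CD45RBlow replicate 2. Fut7, the fucosyltransferase that completes sialyl Lewis x on T cells, read 6.89, 6.89 and 6.82 in Treg and 6.42, 6.42, 6.42 and 6.44 in CD45RBlow (0.44 (SE 0.09, adjusted p = 0.00963)), against 5.92 ± 0.20 in CD45RBhigh (SD, n = 4). Within each of the 2 populations the arrays lay close together, but the CD45RBlow arrays other than replicate 4 hold exactly the same value. Equal values on arrays of 1 population occurred in 281 of the 1246 probe sets, and such ties lower the estimated spread. Centring the arrays on their 75th percentile ended the calls on 21 of the genes reported, with the direction kept. Among them were Fut7 (adjusted p = 0.0540) and Galnt14 (adjusted p = 0.124). Gmds, the first enzyme of GDP-fucose synthesis, differed by 0.40 (SE 0.08, adjusted p = 0.00643). Tpst1 and Tpst2, which sulfate tyrosines of ligands such as PSGL-1, went opposite ways (0.40 (adjusted p = 0.0255) and -0.43 (adjusted p = 0.0362)). Fut10 was higher with both of its probe sets (0.31 and 0.57), and Fut4, with 1 of 3 probe sets called, differed by 0.24 (adjusted p = 0.0756) for the brightest. That probe set passed with the block (blocked 0.0425). The calls ended for Tpst1 without Treg replicates 1 or 4 or CD45RBlow replicates 2 or 3 (adjusted p = 0.0642 to 0.109), for Tpst2 without Treg replicates 1 or 2 or CD45RBlow replicates 1, 2, 3 or 4 (adjusted p = 0.0619 to 0.147) and for the brighter probe set of Fut10 without Treg replicates 1, 2 or 4 or CD45RBlow replicates 1, 2 or 4 (adjusted p = 0.0591 to 0.0917). Chst5, Pofut1 and Fut11 differed by 0.12 (adjusted p = 0.254), 0.22 (adjusted p = 0.287) and -0.17 (adjusted p = 0.401).

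Galactosyltransferases and enzymes of poly-N-acetyllactosamine had 2 of 27 genes higher and 1 lower (3 in each direction with the block). B4galt4 read 5.57, 5.66 and 5.23 in Treg and 4.75, 4.96, 4.51 and 4.64 in CD45RBlow (0.77 (SE 0.13, adjusted p = 0.00181)). Ggta1, which makes the alpha-galactose epitope, read 8.41, 8.10 and 8.01 and 7.73, 7.52, 7.12 and 7.29 (0.76 (SE 0.17, adjusted p = 0.014)), with the call lost without Treg replicate 1 (adjusted p = 0.0732). Gcnt2, which branches these chains into I antigen, read 4.21, 4.05, 3.99 and 3.63 and 3.28, 3.49 and 3.21 (-0.64 (SE 0.12, adjusted p = 0.00407)). B4galt1, the main galactosyltransferase of N-glycans, differed by -0.23 (adjusted p = 0.0863), B3galt5 by -0.20 (adjusted p = 0.0685) and B3gnt4 by 0.22 (adjusted p = 0.126).

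N-glycan assembly and branching gave no call by limma without the block: 0 of 20 genes of precursor assembly and trimming (3 at an unadjusted p under 0.05) and 0 of 12 genes of branching (2 at an unadjusted p under 0.05), with 1 lower in each when blocked. Uggt1, which checks the folding of glycoproteins, read 9.39, 9.29, 9.48 and 9.36 in CD45RBlow and 9.09, 8.97 and 9.18 in Treg (-0.30 (adjusted p = 0.0536), blocked 0.031). Man2a2, a Golgi mannosidase that opens N-glycans for branching, read 6.72, 6.88, 7.05 and 6.97 and 6.27, 6.32 and 6.13, without overlap (-0.66 (adjusted p = 0.0509), blocked 0.0172). Mgat5, which makes the branch that galectin 3 binds, read 5.20, 5.12 and 5.41 in Treg and 5.12, 5.08, 5.07 and 5.16 in CD45RBlow (0.14 (adjusted p = 0.34), 95% interval -0.03 to 0.31), and Mgat3, which adds the bisecting residue, differed by 0.12 (adjusted p = 0.424). Dpm2, Uggt2 and Alg5 differed by 0.19 (adjusted p = 0.169), 0.17 (adjusted p = 0.222) and 0.26 (adjusted p = 0.263). Of 15 genes for O-mannose, GPI anchors and O-GlcNAc none was called without the block (none at an unadjusted p under 0.05), and Large2, Dpm1, Pomgnt1 and Dag1 differed by 0.18 (adjusted p = 0.23), -0.19 (adjusted p = 0.417), 0.18 (adjusted p = 0.507) and 0.18 (adjusted p = 0.557), of which Dag1, dystroglycan, passed with the block (blocked 0.0282).

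**Figure D5:**
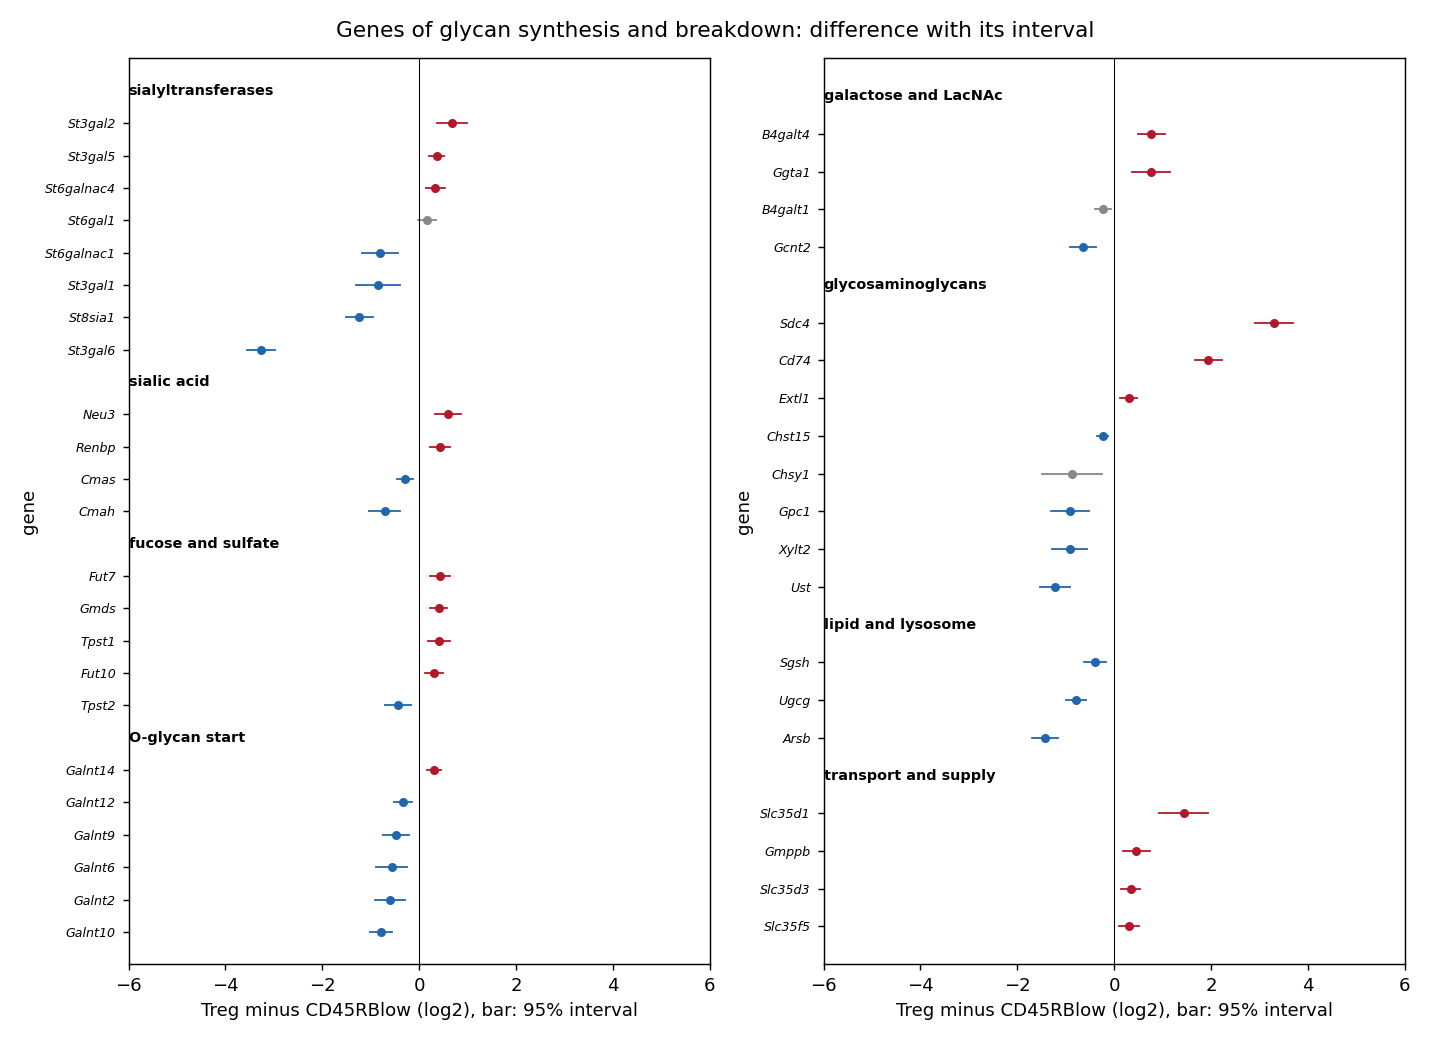
Difference between Treg and CD45RBlow (log2) for genes of glycan synthesis, transport and breakdown, with 95% intervals from limma, red where higher in Treg at an adjusted p under 0.05, blue where lower and grey where not past the threshold. St3gal6 (-3.27) lies far left of the other sialyltransferases, and Sdc4 (3.30) far right of the other glycosaminoglycan genes.

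Glycosaminoglycan chains on proteoglycans hold chemokines and growth factors at the cell surface. Of 43 heparan sulfate genes 2 were higher (Sdc4 and Extl1) and 2 lower (3 in each direction with the block), and of 31 chondroitin and dermatan sulfate genes 1 was higher (Cd74) and 4 lower (2 and 5 with the block), Tgfbr3 among them, whose product betaglycan carries such chains. Xylt2, the xylosyltransferase that starts all these chains on the core protein, read 8.06, 8.06, 8.33 and 8.41 in CD45RBlow and 7.16, 7.23 and 7.51 in Treg (-0.92 (SE 0.16, adjusted p = 0.0029)). Gpc1, the heparan sulfate proteoglycan glypican 1, read 7.60, 7.39, 7.29 and 7.82 and 6.47, 6.55 and 6.83 (-0.91 (SE 0.18, adjusted p = 0.00549)), opposite to syndecan 4. Ust, which sulfates uronic acid in dermatan sulfate, read 8.17, 8.05, 7.93 and 8.28 and 7.21, 6.93 and 6.52 (-1.22 (SE 0.14, adjusted p = 0.000115)), with 9.63 ± 0.08 in CD45RBhigh (SD, n = 4), and its second probe set differed by -0.81. Chsy1, a chondroitin synthase, read 9.64, 9.41, 8.60 and 9.07 and 8.76, 8.19 and 7.97 and was lower in each of the 3 pairs, passing only with the block (-0.87 (adjusted p = 0.0756), blocked 7.82e-05). Such agreement of the 3 pairs was found in 644 of the 1246 probe sets.

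Chst15 and Extl1 differed by -0.23 (adjusted p = 0.0138) and 0.30 (adjusted p = 0.0304), calls that ended for Chst15 without Treg replicate 1 (adjusted p = 0.0507) and for Extl1 without Treg replicates 1, 2 or 4 or CD45RBlow replicates 1, 2 or 4 (adjusted p = 0.0602 to 0.114). Hs6st1, a heparan 6-O-sulfotransferase, and Sulf2, which removes such sulfates, differed by -0.51 (adjusted p = 0.152) and 0.49 (adjusted p = 0.222). Of these Hs6st1 passed with the block (blocked 0.00493). Sdc2 and Sdc3, relatives of syndecan 4, differed by 0.21 (adjusted p = 0.105) and 0.27 (adjusted p = 0.0871) (blocked 0.0247 for Sdc3), so the Sdc4 difference of 3.30 had no counterpart of its size among the syndecans named. Hyal2, Chst11 and Vcan differed by 0.27 (adjusted p = 0.0695), 0.28 (adjusted p = 0.186) and 0.12 (adjusted p = 0.357). Hyal2 passed with the block (blocked 0.00885).

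Lysosomal and other enzymes that break glycans down had 2 of 24 genes higher and 2 lower, and 5 in each direction with the block. Arsb, which removes sulfate from dermatan sulfate, read 9.16, 8.996, 8.94 and 9.27 in CD45RBlow and 7.99, 7.58 and 7.45 in Treg (-1.42 (SE 0.12, adjusted p = 1.38e-05)), without overlap. Sgsh, a heparan sulfatase, differed by -0.40 (adjusted p = 0.0229), which did not pass without Treg replicates 1, 2 or 4 or CD45RBlow replicates 1 or 2 (adjusted p = 0.0507 to 0.0813). Naglu, which acts after Sgsh in the breakdown of heparan sulfate, read 6.75, 6.81 and 7.17 in Treg and 6.45, 6.16, 6.56 and 6.60 in CD45RBlow and passed only with the block (0.47 (adjusted p = 0.134), blocked 0.00238), and Gm2a, the GM2 activator, differed by 0.18 (adjusted p = 0.093).

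Transporters and enzymes that supply nucleotide sugars had 5 of 48 genes higher and none lower, and 9 and 3 with the block. The 5 calls fell to 3 without Treg replicate 4 or CD45RBlow replicate 4 and to 2 without CD45RBlow replicates 1 or 2. Slc35d1, which brings UDP-glucuronic acid and UDP-GalNAc into the endoplasmic reticulum for chondroitin synthesis, read 7.03, 6.88 and 6.77 in Treg and 5.44, 5.51, 5.23 and 5.65 in CD45RBlow (1.44 (SE 0.23, adjusted p = 0.00132)). Of the 5 higher genes it and Gmds were the only ones called whichever array was left out. Gmppb, which makes GDP-mannose, read 7.56, 7.74 and 7.89 and 7.08, 7.22, 7.39 and 7.40 (0.46 (SE 0.13, adjusted p = 0.0345)), and Slc35d3 and Slc35f5 differed by 0.34 (adjusted p = 0.0316) and 0.31 (adjusted p = 0.0484). These calls ended for Gmppb without Treg replicates 2 or 4 or CD45RBlow replicates 1 or 2 (adjusted p = 0.0833 to 0.136), for Slc35d3 without Treg replicates 1 or 4 or CD45RBlow replicates 1, 2 or 4 (adjusted p = 0.0539 to 0.0933) and for Slc35f5 without Treg replicates 1 or 4 or CD45RBlow replicates 1, 2, 3 or 4 (adjusted p = 0.0729 to 0.152). Galk1, galactokinase, passed only with the block (0.42 (adjusted p = 0.0981), blocked 0.00216). Slc35e4, Slc35b1 and Uxs1 differed by 0.27 (adjusted p = 0.0871), -0.16 (adjusted p = 0.112) and 0.17 (adjusted p = 0.121). Slc35e4 passed with the block (blocked 0.0431).

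Notch receptors are activated by ligands on neighbouring cells and tuned by Fringe glycosyltransferases. Of 13 genes 1 was higher in Treg (2 higher and 1 lower with the block), the ligand Dll1, at a low level (3.89, 4.000 and 3.76 against 3.29, 3.16, 3.02 and 3.33, 0.69 (SE 0.09, adjusted p = 0.00021)). Notch2 read 9.84, 10.17 and 9.08 in Treg and 8.77, 9.57, 8.68 and 8.78 in CD45RBlow, overlapping across numbers (0.75 (adjusted p = 0.15), blocked 0.00372). Mfng, manic fringe, read 9.64, 9.60, 9.86 and 10.03 in CD45RBlow and 9.31, 9.29 and 9.56 in Treg (-0.40 (adjusted p = 0.112), blocked 0.00422). Both passed only with the block, and Dll4 differed by 0.15 (adjusted p = 0.338).

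Of 119 named genes called, 13 stood outside the lists. Among them were receptors and a ligand of the Wnt family: Fzd6 was higher (4.44, 4.50 and 4.40 against 3.60, 3.45, 3.25 and 3.60, 0.97 (SE 0.09, adjusted p = 3.29e-05)), Fzd5 lower (5.72, 5.55 and 5.35 against 6.55, 6.49, 6.17 and 5.98, -0.76 (SE 0.13, adjusted p = 0.00272)) and Wnt3 higher at a low level (4.69, 4.51 and 4.51 against 4.04, 3.99, 3.92 and 3.83, 0.62 (SE 0.08, adjusted p = 0.000282)). Psen2, a catalytic subunit of gamma-secretase, read 10.51, 10.55 and 10.46 in Treg and 9.86, 9.98, 9.81 and 9.79 in CD45RBlow (0.65 (SE 0.13, adjusted p = 0.00561)). Kit, the stem cell factor receptor, differed by 0.59 (SE 0.12, adjusted p = 0.00732), Pgm2l1 by -0.70 (SE 0.11, adjusted p = 0.00112) and Sult1a1, a cytosolic sulfotransferase, by 0.46 (SE 0.08, adjusted p = 0.00292). Fzd7, Timd2, Lta4h, Mrpl52 and Polr2f differed by 0.35 (adjusted p = 0.0484), 0.23 (adjusted p = 0.0192), 0.32 (adjusted p = 0.0259), 0.51 (adjusted p = 0.0316) and 0.39 (adjusted p = 0.0265). These last calls ended for Fzd7 without Treg replicates 1 or 2 or CD45RBlow replicates 1, 2 or 3 (adjusted p = 0.0808 to 0.193) and with the block (blocked 0.0638), for Timd2 without Treg replicates 1 or 4 or CD45RBlow replicate 4 (adjusted p = 0.0509 to 0.0818), for Lta4h without Treg replicates 1 or 2 (adjusted p = 0.104 to 0.112), for Mrpl52 without Treg replicates 1 or 4 or CD45RBlow replicates 1, 2, 3 or 4 (adjusted p = 0.0519 to 0.122) and for Polr2f without Treg replicates 1, 2 or 4 or CD45RBlow replicates 1, 3 or 4 (adjusted p = 0.0671 to 0.0892). These 13 genes were named after their values were seen.

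A further 29 called probe sets carry identifiers not matched to a gene here, 13 higher and 16 lower in Treg. The largest 2 are among the 15 largest lower differences: uc007kpi.1_s_at read 11.67, 11.51, 11.25 and 11.55 in CD45RBlow and 8.49, 8.37 and 9.09 in Treg (-2.85 (SE 0.20, adjusted p = 2.47e-06)), and uc009ego.1_psr1_at read 6.02, 5.66, 5.17 and 5.48 and 2.995, 3.06 and 2.87 (-2.61 (SE 0.18, adjusted p = 2.47e-06)), the latter with Treg values near background.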

How the data were processed

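The authors deposited log2 expression values per probe set, made with Robust Multichip Average (RMA) per the submitters' processing notes; its version is not given in the sources used here. RNA was amplified and labelled with biotin, and the labels name Trizol where the series text names an RNeasy kit for extraction. Of 1246 identifiers, 984 are RefSeq, 261 UCSC and 1 other; RefSeq accessions gave names (annotation of GRCm38.p6, names only). A gene with several probe sets is given by the brightest, and a suffix s or x in an identifier (38 of the 156 called) marks probes that may match several transcripts, as for Klra9, Ccr6, Cd74, Igfbp4 and Ust.

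No further normalization or filter was applied. limma 3.58.1 (R 4.3.3) fitted the population means over all 11 arrays (prior degrees of freedom 2.87, residual 8). The contrast was two-sided, p was adjusted by Benjamini-Hochberg over the 1246 probe sets and the threshold was 0.05. In this fit the CD45RBhigh arrays enter only through the shared spread. In the blocked fit they also help to estimate the effects of the replicate numbers. Tables and plots were made in Python 3.11.15 with pandas 2.3.3 and matplotlib 3.10.9. The fit was also run on simulated data with independent arrays. Those data held neither the replicate split nor equal values, so that run does not cover these traits of the arrays. The number of arrays limits the precision.

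Replicate numbers 1, 2 and 4 occur in both populations, and array titles of the same number end in the same digits, which no label explains. All 3 pairs of same-numbered arrays had deviations that correlated above 0.1, the condition used here for taking the numbers as pairs. Blocked values are given where they change a call. Deviations of unlike numbers also correlated, at 0.58 for Treg replicate 4 with CD45RBlow replicate 3 and 0.47 for Treg replicate 1 with CD45RBlow replicate 2. The condition therefore cannot tell pairs from a split of replicates 1 and 2 against 3 and 4. Over the series, 257 probe sets (20.6%) differed across that split.

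The members and the 26 gene and 9 marker lists were chosen with earlier results of these data known. Named genes were, per direction, the 15 largest differences past the threshold without overlap, per list up to 6 called genes and up to 4 others by smallest p, and the markers, of which those of other cell types are given mainly as counts and ranges; further genes were named after seeing their values, and some that the rule names are not reported here. Alternatives were the replicate number as a fixed or random block, fits on fewer arrays, other scalings, filters, moderation and probe set choices, and each array left out.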

Additional observations from a re-analysis of the deposited data

Results flagged for a closer look

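On 8 of 215 probe sets reported, 1 CD45RBlow array lay apart from the other 3 by more than Dixon's 95% critical value for 4 samples; chance alone flags about 1 in 20 such groups. Replicate 3 was low for Ccr1 (2.505 against 2.566 on each of the others), Ccr10 (5.74 against 6.34 to 6.42), Cd2 (11.7 against 11.9) and Nog (3.12 against 3.28). Replicate 4 was high for Igfbp7 (6.03 against 4.94 to 5.01) and, by a trace, for Fut7 (6.44 against 6.42). Replicate 2 was high for Notch2 (9.57 against 8.68 to 8.78) and low for Klra8 (3.76 against 4.01 to 4.03). For Ccr1, Fut7 and Nog the other 3 arrays hold equal values, so the gap is the whole range. Of these 8 genes Ccr10, Cd2 and Fut7 differed between Treg and CD45RBlow, and none of those calls ended when the array that lay apart was left out.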

How the results depend on the processing

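Of the 156 calls, 152 were also made with the replicate block (245 in all), 151 with the block on only the arrays of pairs 1, 2 and 4 (261 in all, an alternative chosen after seeing the data) and 132 with replicates 1 and 2 only. With replicates 3 and 4 only, where Treg has 1 array that is assumed to vary like the other populations, 49 probe sets were called. A change of at least 2-fold as well left 54, and a threshold of 0.01 left 100. Leaving out 1 array gave 110 to 146 calls. Under all other alternatives run, among them centring, repeated quantile normalization, a random block, 7 arrays only and filters on dim probe sets, the count stayed within 1.5 times the reported one (104 to 194). The balance of directions depended on the scaling: 84 higher and 72 lower as reported, 74 and 74 with arrays centred on the median, and 61 and 77 with the 75th percentile. Of the 156 calls, 128 were also made with the 75th percentile centring. Leaving out probe sets that hold equal values on arrays of 1 population, also chosen after seeing the data, left 141.

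For single genes, 4280 of 4776 values kept direction and side of the threshold, 333 lost and 151 gained it, and 12 changed sign, all in genes that were not called. With 1 array left out, Cd44 ranged from -0.28 (without Treg replicate 1) to 0.20 (without Treg replicate 4), Cd69 from -0.16 (without Treg replicate 1) to 0.37 (without Treg replicate 4), Il6ra from -0.21 to 0.011 and Tgfb1 from -0.046 to 0.42 (the turned values of both without Treg replicate 4). Cd69 also turned to -0.091 with replicates 1 and 2 only and to -0.021 with the block on pairs only, and Fcer2a to -0.0097 with replicates 3 and 4 only and -0.025 with repeated quantile normalization. Of the genes reported, 6 passed with the block on pairs only and under neither the unblocked fit nor the full block (B3gnt4, Ccr4, Lgals3, Siglec15, Sulf2 and Tgfb1), while Cd22, Timd2, Bmp8a and Fzd7 lost their calls there. The cause was not tested. With 3 and 4 arrays a side, and many probe sets near background, small differences at low levels rest on little signal over background.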
